A study of Mus musculus with 4 samples.

Results

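The genes described here encode the respiratory chain and ATP synthase of mitochondria, in islet cells of mice with and without a beta cell driver line acting on floxed Atf4. They were chosen by symbol alone: every symbol of the deposited gene lists that starts with Nduf followed by a, b, c, s or v, with Uqcr, with Cox4 to Cox8, with Atp5 or with mt-, leaving out pseudogenes and the Ndufaf assembly factors. The rule found 92 of 21594 gene symbols. Of these 80 are nuclear genes, 38 placed in complex I, 8 in complex III, 17 in complex IV and 17 in complex V. The other 12 are mitochondrial genes, 7 of complex I, 1 of complex III, 3 of complex IV and 1 of complex V. Symbols for mt-Atp8 and for the mitochondrial ribosomal RNAs were not among those analysed here. The rule goes by name, so that Ndufa4, for example, which later work places in complex IV, is counted with complex I.

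Complex I (NADH dehydrogenase) and complex III (cytochrome bc1) pass electrons on to complex IV (cytochrome c oxidase), and the proton gradient that this builds drives ATP synthase, called complex V here. The subunits come from 2 genomes: mitochondrial DNA encodes a small hydrophobic core, and nuclear genes encode the rest. In beta cells the ATP made from glucose closes potassium channels and so triggers insulin release, and the chain is for that reason counted as part of glucose sensing. Atf4 drives the gene programme of the integrated stress response, to which stressed mitochondria are a known input.

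Islets came from 2-month-old mice. Mutants were Atf4F/F; Ins1Cre, in which Cre is made under the Ins1 locus that is active in beta cells, and controls were Atf4F/F, with floxed alleles and no Cre, so that the driver and the deletion cannot be told apart. There were 2 pools per group, named mutant 1, mutant 2, control 1 and control 2. Each pooled 2 males and 2 females by the study's design text, or 3 to 4 mice by its protocol. The tdT+ and tdT- cells of a pool were run as 1 sample by inDrops, a droplet method that counts transcripts by unique molecular identifiers (UMIs), and 10% human K562 cells, a leukaemia line, had been added to each. Replicates were pools of different mice. P-values between mutant and control measure the spread between pools. Those between classes come from a fit that takes out the level of each pool. They measure how differences between classes vary from pool to pool, with a spread shared by all classes.

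The 4 libraries held 13706563 to 17655893 UMIs in 2352 to 3272 barcodes, and 6995 of 11114 barcodes were kept (at least 500 genes and under 20% mitochondrial UMIs, a limit that removed 5). The libraries shared 391 barcode sequences, 166 among kept barcodes. Atf4 checked the labels: in beta-class cells it stood at 6.52 and 119 counts per 1000000 of the sum (CPM) in mutants 1 and 2 against 361 and 365 in controls 1 and 2. Mutant 2 thus kept part of its Atf4 counts. The difference (log2 -2.53 ± 0.93 SE) did not pass edgeR's quasi-likelihood test (Benjamini-Hochberg adjusted p = 0.296).

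Barcodes were sorted by hormone UMIs alone into a beta class (insulin), an alpha class (Gcg, glucagon), a delta class (Sst, somatostatin) and a pp class (Ppy, pancreatic polypeptide). A class is a range of hormone shares, not a cell type. In the order mutant 1, mutant 2, control 1, control 2, which holds for all lists of values below, the beta class had 893, 1076, 1471 and 1397 barcodes. The alpha class had 135, 248, 173 and 158, the delta class 65, 86, 68 and 54, and the pp class 40, 21, 48 and 15. Near the limits of the beta class lay 94 barcodes inside and 101 outside. The corresponding numbers were 14 and 16 for alpha, 13 and 13 for delta and 12 and 11 for pp. Insulin took a median 41.0% of UMIs in the beta class and 0.692%, 0.731% and 0.784% in alpha, delta and pp. Gcg took 26.6% in alpha, Sst 20.5% in delta and Ppy 15.1% in pp, and Ppy was also found in the delta class (1.18%). Barcodes with a pair of strong hormones (174, 209, 191 and 186) were left out, no doublet caller was run, and doublets that pass the limits remain possible.

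The labels of the classes were checked on markers other than the hormones used for sorting. The beta markers include Iapp, also a beta cell hormone, which in delta stood at 34.9 to 46.1% of its beta level. The 8 beta markers summed to 56740 to 62060 CPM in the beta class and 2343 to 3186 in alpha, although Mafa, a defining beta cell factor, was at 0 in mutant 2 and control 1. The 8 alpha markers summed to 18370 to 22890 CPM in alpha and 1642 to 2342 in beta, and the 6 delta markers to 3280 to 5329 in delta and 81.4 to 162 in beta. The 6 pp markers summed to 108400 to 129700 CPM in pp, 9250 to 14770 in alpha and 687 to 1063 in beta. The delta class also carried 18230 to 25380 CPM of beta markers and 32130 to 38700 of pp markers, so it is called here by its hormone only. In control 2 its erythroid markers summed to 16190 CPM, against at most 2.56 in the other 3 pools.

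Summed over all 80 genes, nuclear respiratory chain transcripts took a larger share of the UMIs outside hormone genes in the beta class than in the other 3 classes in every pool, and the 12 mitochondrial genes differed by more. As a percentage of UMIs outside the 7 hormone genes, the nuclear genes made up 1.90, 1.79, 1.86 and 2.01% in the beta class and 1.53, 1.46, 1.51 and 1.48% in alpha. They made up 1.57, 1.58, 1.66 and 1.58% in delta and 1.59, 1.60, 1.64 and 1.57% in pp. No beta value overlapped with those of the other classes, and beta stood 1.12 to 1.36 times above them within pools. This order rests on leaving the hormones out: as a percentage of all UMIs the nuclear genes made up 1.21, 1.07, 1.08 and 1.18% in beta, 1.12, 1.06, 1.11 and 1.08% in alpha, 1.14, 1.13, 1.18 and 1.16% in delta, and 1.10, 1.08, 1.17 and 1.11% in pp. On that scale the classes overlapped, and beta was lowest in control 1 and below delta and pp in mutant 2. The mitochondrial genes made up 4.80, 4.04, 6.12 and 3.43% in beta, 2.49, 2.27, 3.72 and 2.13% in alpha, 1.99, 1.87, 2.93 and 1.63% in delta, and 2.88, 2.93, 4.15 and 2.81% in pp. Here control 1 was highest in each class, and its alpha and pp values lay above the beta value of control 2, so that classes overlapped between pools, but within each pool beta was 1.22 to 2.41 times higher.

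Mitochondrial UMIs per nuclear UMI were 2.53, 2.25, 3.29 and 1.70 in beta, 1.63, 1.55, 2.46 and 1.44 in alpha, 1.26, 1.18, 1.77 and 1.03 in delta, and 1.81, 1.83, 2.53 and 1.79 in pp. The ratio was lowest in delta in all 4 pools. It was highest in beta in all pools but control 2, where beta stood at 0.954 of pp. The makeup of the nuclear part differed little between pools: in beta, complex I took 34.1 to 36.4% of nuclear member UMIs, complex III 6.96 to 8.24%, complex IV 26.4 to 29.0% and complex V 28.2 to 29.1%.

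**Figure D1:**
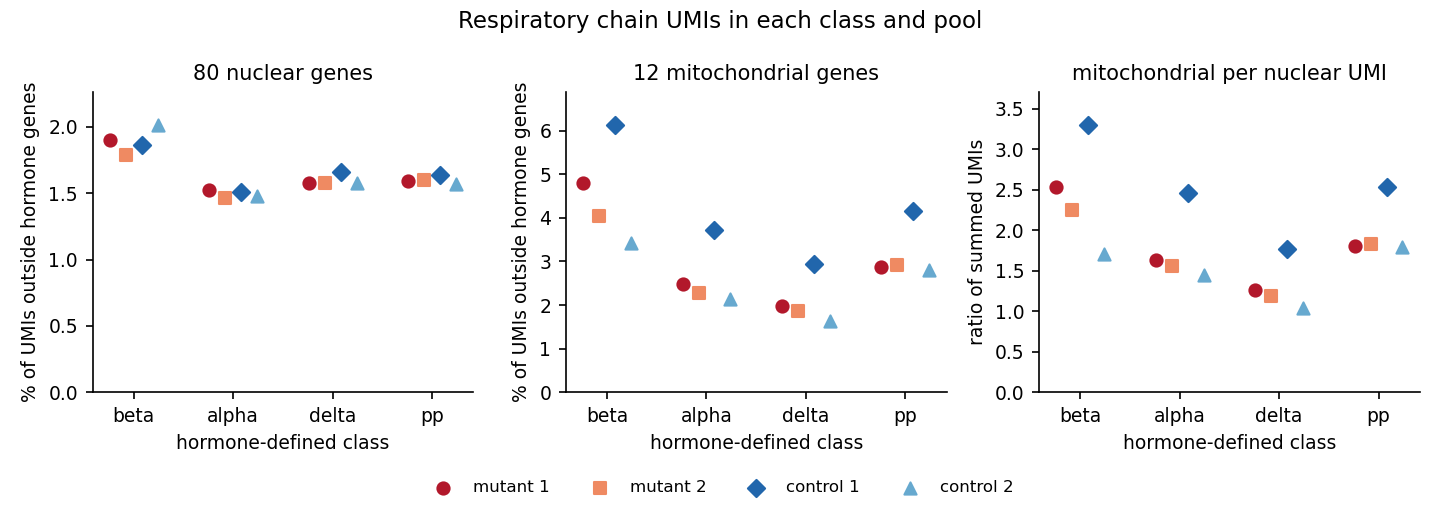
Share of UMIs outside hormone genes taken by the 80 nuclear genes (left) and the 12 mitochondrial genes (middle), and mitochondrial UMIs per nuclear UMI (right), for each hormone-defined class on the x axis; each point is 1 pool. Nuclear shares in beta (1.79 to 2.01%) lie above all others, while mitochondrial shares spread widely between pools, with control 1 on top in every class.

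Gene by gene, the beta class was then compared with each other class in 1 edgeR fit of all 16 sums (4 pools by 4 classes), with the pool as a block. Levels in this fit are CPM after TMM scaling, a correction for libraries in which a few genes take many counts. Of the 92 genes, 84 had enough counts to test. Cox4i2, Cox6b2, Cox7a1, Cox7b2, Cox8b, Ndufa4l2, mt-Atp6 and mt-Co3 had not. Against alpha 52 were higher in beta and 5 lower, where 23.3% and 24% of all tested genes were. Against delta 35 were higher and 1 lower (all genes 15.1% and 14.1%), and against pp 32 were higher and 1 lower (all genes 11.6% and 9.6%). The median log2 difference of the nuclear genes was 0.31, 0.32 and 0.29 against alpha, delta and pp, and that of the mitochondrial genes 0.75, 1.28 and 0.58, beside -0.02, 0.04 and 0.08 for all genes.

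The direction of the nuclear genes rests on the scaling. With library totals alone, of which insulin and the other hormones are a large part, the median of all genes moved to -0.26, -0.30 and -0.20, and that of the nuclear genes to 0.06, -0.03 and 0.01. The nuclear genes then divided into 21 higher and 13 lower, 7 and 12, and 7 and 8. The mitochondrial genes stayed above 0 in each comparison (medians 0.50, 0.94 and 0.30), with 9, 9 and 5 called higher. With totals that leave out the hormone genes, 45, 17 and 17 nuclear genes were higher and 5, 1 and 2 lower. Beta barcodes were also deeper (median 6431 UMIs against 3870, 2845 and 3550). Among barcodes of 2000 to 6000 UMIs 36, 23 and 15 members were called, with nuclear medians of 0.26, 0.33 and 0.32 and mitochondrial medians of 1.02, 1.62 and 0.84.

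Higher in beta than in all 3 classes were 22 members, or 14 of 74 nuclear and 8 of 10 mitochondrial genes tested, where 6.82% of all genes were. Among the nuclear ones were Ndufa2, Ndufa11, Ndufb8, Ndufb9, Ndufc1 and Ndufv3 of complex I, Uqcrq of complex III, Cox6a1, Cox6a2, Cox7a2l and Cox7b of complex IV, and Atp5b and Atp5g1 of complex V. No mitochondrial gene and 18 nuclear genes had no call in any of the 3 comparisons, among them Cox4i1 and Cox5a, core partners of the catalytic subunits of complex IV, Ndufs1, the largest iron-sulphur subunit of complex I, and Uqcrc2, a core protein of complex III. Counts were low for Cox5a (50, 12 and 8 UMIs in all of alpha, delta and pp) and Uqcrc2 (40, 17 and 13). A missing call says little about these genes.

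**Figure D2:**
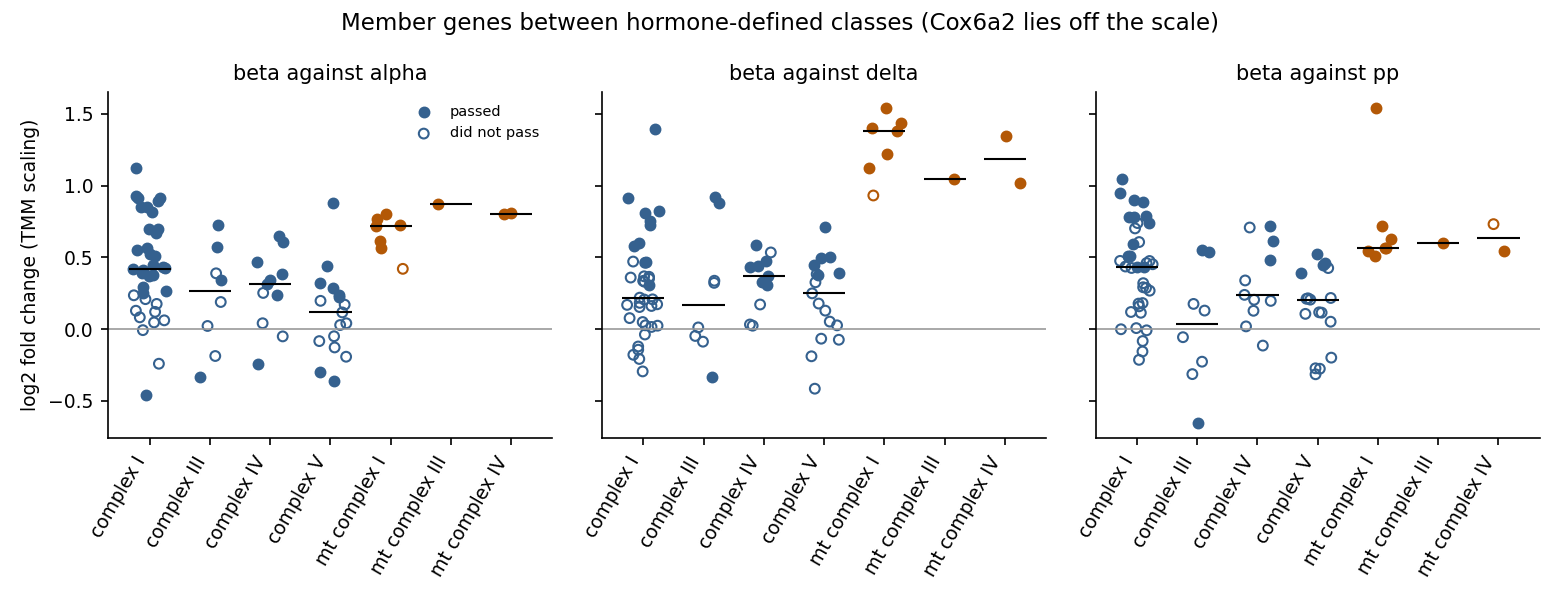
Log2 fold change of each tested gene in the beta class against alpha, delta and pp (TMM scaling), by complex and genome; filled points passed the test at an adjusted p under 0.05, open ones did not, and black bars are medians. Mitochondrial genes (orange) lie above 0 in all 3 panels, with medians of 0.75, 1.28 and 0.58 over all of them, and nuclear genes (blue) fall on both sides; Cox6a2 lies beyond the axis.

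Complex I is the largest of the complexes. Of its 37 tested nuclear genes 26 were higher in beta and 1 lower against alpha, 10 and 0 against delta, and 13 and 0 against pp, with medians of 0.42, 0.22 and 0.44. With library totals alone these medians were 0.17, -0.13 and 0.16. The 7 nuclear subunits that carry the redox centres of its core gave 6, 2 and 1 higher.

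Ndufb8, an accessory subunit of the membrane arm, stood at 237, 231, 270 and 277 CPM in beta and 139, 140, 159 and 123 in alpha. It stood at 193, 152, 170 and 168 in delta and 133, 99.4, 136 and 164 in pp. All 4 beta values lay above all 12 others. The log2 differences were 0.85 ± 0.09 (SE, adjusted p = 3.3e-11 by edgeR) against alpha, 0.58 ± 0.12 (1.7e-04) against delta and 0.95 ± 0.16 (3.0e-06) against pp, the last not called among barcodes of matched depth (0.66, adjusted p = 0.0822).

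Ndufa11, which helps to hold the membrane arm together, stood at 127, 99.9, 115 and 118 CPM in beta and 64.7, 45.5, 44.1 and 57.8 in alpha. It was above all alpha, delta and pp values in every pool, by log2 1.12 ± 0.12, 0.81 ± 0.18 and 0.89 ± 0.21. Ndufv3, a small subunit of the NADH-oxidising module, had 172, 162, 156 and 172 CPM in beta and 91.7, 96.2, 81.5 and 82.3 in alpha, again with no overlap, and differed by 0.91 ± 0.10, 0.76 ± 0.15 and 1.05 ± 0.19. Ndufb9 differed by 0.82 ± 0.10 against alpha. Ndufa2, the complex I gene with most UMIs in beta (16555), differed by 0.55 ± 0.08, 0.31 ± 0.10 and 0.51 ± 0.12.

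Ndufa6, an accessory subunit of the LYR family, was the complex I gene called lower: 184, 171, 190 and 194 CPM in beta lay below 240, 237, 269 and 269 in alpha (log2 -0.46 ± 0.09, adjusted p = 9.9e-06), and it was not called against delta or pp.

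Complex III gave 3 higher and 1 lower of 8 against alpha, 2 and 1 against delta, and 2 and 1 against pp, with medians of 0.27, 0.17 and 0.04. These fell to 0.02, -0.18 and -0.24 with library totals alone, and the last was -0.02 with totals that leave out hormones. Uqcrq, a small subunit next to cytochrome b, stood at 224, 188, 201 and 225 CPM in beta and 126, 108, 139 and 134 in alpha, without overlap (0.73 ± 0.09, adjusted p = 2.9e-09). It was also above delta (0.88 ± 0.14) and pp (0.54 ± 0.15).

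Uqcrh, the hinge protein that contacts cytochrome c1, had most UMIs of complex III in beta (8086) and went the other way. It stood at 187, 193, 219 and 215 CPM in beta and 245, 243, 257 and 279 in alpha (log2 -0.33 ± 0.08, adjusted p = 7.7e-04), with every beta value below every alpha value, but was not called in the controls alone (-0.29, adjusted p = 0.0639). Against delta it was called as well (-0.33 ± 0.11, adjusted p = 0.0168), but leaving out mutant 1, mutant 2, control 1 or control 2 ended that call (adjusted p = 0.195, 0.0655, 0.066 and 0.202). Uqcrfs1, the Rieske iron-sulphur protein, was lower in beta than in pp (118, 102, 106 and 114 against 215, 163, 166 and 123 CPM, -0.65 ± 0.17, adjusted p = 0.0032). That call was lost without mutant 1 (adjusted p = 0.154) or control 1 (0.421), and the value was 0.07 among barcodes of matched depth.

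Complex IV gave 8 higher and 1 lower of 12 against alpha, 8 and 0 against delta, and 4 and 0 against pp (medians 0.33, 0.40 and 0.29, and 0.08, 0.06 and 0.01 with library totals alone). It contains the member with the widest difference between classes, Cox6a2. Subunit 6A of cytochrome c oxidase exists as Cox6a1, found in most tissues, and Cox6a2, known from heart and skeletal muscle. Cox6a2 lies at chr7:128205435-128206387 (minus strand, mm10) and had 2111, 2247, 1257 and 3345 UMIs in beta against 3, 4, 1 and 4 in alpha, and 0 in all 8 delta and pp sums.

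In CPM that was 237, 244, 125 and 293 in beta and 3.23, 3.43, 1.34 and 5.14 in alpha (log2 6.07 ± 0.20, adjusted p = 5.4e-30). The few alpha counts amounted to 1.31 to 2.12% of the beta level, where insulin in alpha amounted to 1.94 to 2.86% and Iapp, another beta cell hormone, to 2.39 to 4.07%. They were thus no more than what beta cell hormones left in the same sums. At the beta level, 202 UMIs would have been counted in delta and 129 in pp. Taking 3 counts over the pooled class as the limit that a count of 0 allows, Cox6a2 was at least 67.4-fold higher in beta than in delta and at least 43.1-fold higher than in pp (counting error only).

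Cox6a1 was found in all classes: 294, 252, 324 and 325 CPM in beta, 230, 222, 251 and 254 in alpha, 215, 177, 231 and 240 in delta, and 224, 199, 218 and 205 in pp. It was higher in beta in every pool, by 0.32 ± 0.08, 0.48 ± 0.11 and 0.48 ± 0.13, a much smaller difference than that of its partner. Cox6a2 took 44.7, 49.2, 27.9 and 47.4% of the Cox6a UMIs in beta, the low value again in control 1.

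**Figure D3:**
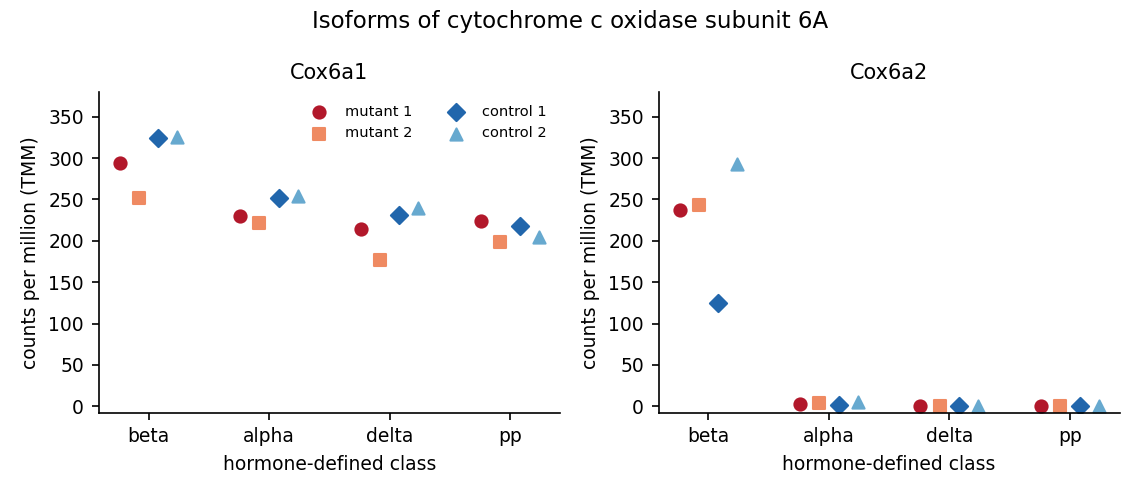
Levels of Cox6a1 (left) and Cox6a2 (right) in CPM after TMM scaling, for each hormone-defined class on the x axis; each point is 1 pool. Cox6a1 lies between 177 and 325 in all classes, while Cox6a2 lies between 125 and 293 in beta, at 5.14 or less in alpha and at 0 in delta and pp.

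No other tissue isoform came near this. In the beta class Cox4i1 had 18853 UMIs and Cox4i2 14, Cox6b1 7713 and Cox6b2 12, Cox7b 5877 and Cox7b2 47, Cox8a 19899 and Cox8b 1, and Ndufa4 5590 and Ndufa4l2 31. Cox7a2 had 8774, the muscle isoform Cox7a1 113, and Cox7a2l, a related protein that joins complexes III and IV into supercomplexes, 29202, the most of any nuclear member of complex IV. Cox7a2l stood at 491, 686, 936 and 798 CPM in beta and 391, 480, 491 and 451 in alpha, with the beta value of mutant 1 no higher than the alpha value of control 1. It differed by 0.65 ± 0.09, 0.58 ± 0.10 and 0.72 ± 0.12 from alpha, delta and pp. Cox7c, a small structural subunit, was called lower than in alpha (-0.24 ± 0.08, adjusted p = 0.0142), a call that ended on leaving out mutant 1 (adjusted p = 0.0733), mutant 2 (0.121) or control 1 (0.156).

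Complex V gave 6 higher and 2 lower of 17 against alpha, 6 and 0 against delta, and 4 and 0 against pp, with medians of 0.12, 0.25 and 0.21, which became -0.13, -0.10 and -0.07 with library totals alone. Its ring of c subunits is encoded by 3 genes whose mature proteins are the same, Atp5g1, Atp5g2 and Atp5g3, with 12545, 6488 and 15361 UMIs in beta. Atp5g1 stood at 323, 284, 307 and 348 CPM in beta and 181, 166, 164 and 175 in alpha, without overlap (0.88 ± 0.09, adjusted p = 6.3e-12). It was also above delta (0.71 ± 0.12) and pp (0.46 ± 0.13).

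Atp5g2 went the other way against alpha, with 140, 148, 163 and 196 CPM in beta and 208, 189, 202 and 230 in alpha. Within each pool beta was lower (-0.36 ± 0.09, adjusted p = 7.5e-04), although beta of control 2 overlapped with the alpha range, and in the controls alone the call was lost (-0.25, adjusted p = 0.148). Atp5c1, the central stalk, was called lower than in alpha (-0.30 ± 0.08, adjusted p = 0.0024), and leaving out mutant 2 or control 1 ended that call (adjusted p = 0.141 and 0.133). Atp5a1, the alpha subunit of the head and the complex V gene with most UMIs in beta (21468), was called higher against delta alone (0.49 ± 0.10, adjusted p = 8.2e-05; 0.17 ± 0.08 and 0.12 ± 0.11 against alpha and pp).

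Among mitochondrial genes the differences were largest against delta. mt-Cytb, cytochrome b of complex III, stood at 8479, 7571, 12443 and 5572 CPM in beta and 4123, 3972, 7182 and 3368 in alpha. It stood at 3662, 3568, 6293 and 2971 in delta and 5127, 4882, 8260 and 4081 in pp. The pools kept nearly the same order in every class, with control 1 at the top and control 2 at the bottom, and within each pool beta was highest. The differences were 0.87 ± 0.12, 1.05 ± 0.12 and 0.60 ± 0.12 against alpha, delta and pp.

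mt-Nd2, a membrane subunit of complex I, stood at 3323, 3358, 4454 and 3474 CPM in beta and 1066, 1270, 1689 and 1542 in delta, without overlap (1.40 ± 0.11, adjusted p = 1.7e-16). mt-Nd3 differed by 1.54 ± 0.12 from delta, mt-Nd5 by 1.44 ± 0.10, mt-Nd6 by 1.38 ± 0.11, mt-Nd4 by 1.22 ± 0.12 and mt-Nd1 by 1.12 ± 0.11, all of them membrane subunits of complex I. mt-Co1, the catalytic subunit of complex IV, differed by 0.80 ± 0.08, 1.02 ± 0.09 and 0.54 ± 0.10. Against pp the calls of mt-Nd1, mt-Nd3 and mt-Nd4 (0.51 ± 0.11, 0.56 ± 0.12 and 0.56 ± 0.12) were lost with library totals alone (adjusted p = 0.12, 0.0882 and 0.0837).

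UMIs were spread very unevenly over the mitochondrial genes, and counts of different genes, which were not made per length, do not order their transcripts. In beta mt-Cytb took 25.6% ± 2.05 of mitochondrial UMIs (SD, n = 4 pools), mt-Nd4 25.5% ± 1.55, mt-Nd6 15.6% ± 2.34, mt-Nd1 13.1% ± 0.953, mt-Nd2 11.5% ± 2.13 and mt-Co1 4.30% ± 0.887. By contrast mt-Co2 took 0.143% ± 0.0784, mt-Nd4l 0.0811% ± 0.0146, mt-Co3 0.0233% ± 0.00918 and mt-Atp6 0.0218% ± 0.0122. The last 4 are among those with a near-identical copy in the nuclear genome. In the mouse annotation (GENCODE vM21, GRCm38) mt-Co3 matched the pseudogene Gm28437 (chr1:24613189-24613971, minus strand) at 100% over 99.9% of its length, and mt-Atp6, mt-Co2 and mt-Nd4l matched Gm10925, Gm28661 and Gm10222 of the same stretch of chromosome 1 at 100%.

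mt-Nd4 matched Gm28439 at 100% as well, but only over its leading 876 of 1378 bases. Only the closest match of each gene was read, so whether another copy covers its 3′ end is not known. mt-Nd6 matched its closest copy, Gm11408, at 93.6% and mt-Cytb matched Gm11410 at 92.9%. The remaining genes did not order simply by share of mitochondrial UMIs. mt-Co1 matched at 97.6% over 100% of its length (share 4.30%) and mt-Nd2 at 96.7% over 49.1% (11.5%). mt-Nd5 matched at 92.3% over 58% (2.72%) and mt-Nd1 at 76.6% over 53.2% (13.1%). None of the copies is among the symbols of the files. How reads that fit more than 1 place were counted is not given in the sources used here, and the part of the copies in the low counts was not tested. The sequences below show the contrast: a window of 60 bases in the middle of mt-Co3 (chrM:8968-9027, plus strand), which is the same in its copy, and 1 of mt-Nd6 (chrM:13782-13841, minus strand), with the 8 bases that differ from the copy in capitals.
mt-Co3 and Gm28437: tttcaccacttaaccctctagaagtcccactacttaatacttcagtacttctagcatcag
mt-Nd6: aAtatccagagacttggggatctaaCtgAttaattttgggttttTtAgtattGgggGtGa
Gm11408: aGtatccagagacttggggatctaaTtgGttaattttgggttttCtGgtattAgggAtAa
The levels of mt-Co2, mt-Nd4l, mt-Co3, mt-Atp6 and mt-Nd3 (1.44% ± 0.303 of mitochondrial UMIs, 99.7% identical to Gm28438) are therefore uncertain. mt-Nd6 is the 1 of these genes encoded on the other strand, and since it is not stated whether counting used the strand, its UMIs may include antisense transcripts of its neighbours.

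Promoters of the nuclear members were read for the motifs of factors known to act on respiratory chain genes, in RefSeq sequences (GRCm38.p6) from 250 bases before to 50 after the start, on both strands. Of 80 nuclear members 64 were in the table. The NRF1 motif (GCGCA, any base, then GCGC) was found in 15 of them (23.4%), against 5.19% of all 27025 promoters. The YY1 motif AANATGGC was found in 16 (25%, all promoters 6.96%), and the ETS motif CCGGAAGT, bound by GABP, in 5 (7.81%, all promoters 4.31%). None of the motifs contains another. By complex, NRF1 was found in 6 of 13 genes of complex V, 7 of 33 of complex I, 1 of 5 of complex III and 1 of 13 of complex IV, and YY1 in 12 of 33 of complex I. Of the nuclear members higher in beta than in all 3 classes 9 were in the table, and 2 held NRF1 and 4 YY1. These matches describe letters in a window and show no binding.

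A few promoters of genes higher in beta than in each other class are shown with these matches in capitals. Cox6a1 (chr5:115348909-115349208, minus strand) has 2 NRF1 matches, at -162 and -117 from the start, Ndufa11 (chr17:56717512-56717811, plus strand) has 1 NRF1 match at -60, and Ndufb8 (chr19:44555393-44555692, minus strand) has 1 YY1 match 38 bases after the start. The promoter of Cox6a2 was not in the table.
Cox6a1: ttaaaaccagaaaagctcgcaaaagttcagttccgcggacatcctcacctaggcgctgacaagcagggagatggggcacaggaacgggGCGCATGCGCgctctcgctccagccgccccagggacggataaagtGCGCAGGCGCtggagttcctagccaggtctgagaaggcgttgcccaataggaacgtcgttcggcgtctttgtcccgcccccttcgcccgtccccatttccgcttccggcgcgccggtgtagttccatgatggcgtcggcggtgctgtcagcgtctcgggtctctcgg
Ndufa11: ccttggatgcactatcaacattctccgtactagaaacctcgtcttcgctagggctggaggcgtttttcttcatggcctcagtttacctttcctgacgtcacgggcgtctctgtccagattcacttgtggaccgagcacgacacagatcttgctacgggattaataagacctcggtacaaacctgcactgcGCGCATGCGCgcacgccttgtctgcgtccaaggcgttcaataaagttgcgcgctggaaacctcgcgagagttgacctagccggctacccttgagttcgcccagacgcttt
Ndufb8: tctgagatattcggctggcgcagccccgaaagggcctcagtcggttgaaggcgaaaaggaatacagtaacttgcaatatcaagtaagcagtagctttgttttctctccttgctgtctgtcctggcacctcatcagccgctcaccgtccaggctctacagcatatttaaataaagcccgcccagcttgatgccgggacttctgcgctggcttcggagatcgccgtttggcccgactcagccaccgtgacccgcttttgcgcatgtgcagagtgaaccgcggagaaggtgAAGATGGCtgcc

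Other genes of the same organelle were taken from lists by function. Beside their counts, 23.3% of all tested genes were higher in beta and 24% lower against alpha, 15.1% and 14.1% against delta, and 11.6% and 9.6% against pp. Complex II, wholly nuclear, gave 3 higher and 1 lower of 4 in beta against alpha, 1 and 0 against delta, and 1 and 1 against pp. Sdha, its flavoprotein, was higher than in alpha (0.71, adjusted p = 2.4e-08). Cycs, cytochrome c, was higher than in alpha (0.63, adjusted p = 1.7e-06) and delta (0.70, adjusted p = 4.8e-04, but 0.36 and adjusted p = 0.0882 with library totals alone, and 0.65 and adjusted p = 0.0623 in the controls alone). Of 36 tested assembly factors 14 were higher and 1 lower against alpha, 3 and 1 against delta, and 3 and 0 against pp. The counts against delta and pp did not exceed the shares of all genes. Uqcc2, an assembly factor of complex III, was higher in all 3 (1.02, 1.11 and 1.35).

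Of the 18 tested genes for transcription and care of mitochondrial DNA and RNA, 0 were higher and 1 lower against alpha, 2 and 0 against delta (median 0.32), and 0 and 1 against pp. Of 8 tested transcriptional regulators 0 were higher in any comparison and 3, 1 and 1 were lower. Ppargc1a, a coactivator of respiratory chain genes, was lower in beta than in alpha (15.4 against 77.2 CPM, log2 -2.48, adjusted p = 2.9e-17). Among 9 genes that move ATP and ions, Ucp2, an uncoupling protein homologue, was lower in beta in all 3 (-0.64 against alpha and -1.24 against delta). Of 10 mitochondrial stress genes 4, 4 and 3 were higher and 0 lower. The same shares of all genes apply to these lists, and several of the counts lie near or below them.

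Levels of the mitochondrial genes varied more over the 4 pools than those of the nuclear genes. Over genes with at least 100 UMIs in every beta sum, the highest pool stood a median 2.12 times above the lowest for 10 mitochondrial genes, and 6 exceeded 2-fold. For 74 nuclear genes the median was 1.20, 67 were under 1.5-fold and 4 exceeded 2-fold. Mitochondrial UMIs took 1.79 times as large a share of the beta class in control 1 as in control 2, where the nuclear share was 0.925 times as large, and the mitochondrial factor was 1.74 in alpha, 1.80 in delta and 1.48 in pp.

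mt-Nd5 stood at 1264, 582, 1430 and 462 CPM in beta, high in mutant 1 and control 1 and low in the other two. Uqcrb, the ubiquinone-binding protein of complex III, stood at 190, 181, 264 and 81.6 CPM in beta and 146, 137, 193 and 28.3 in alpha, so that control 2 was lowest in both classes. Cox6a2 was instead lowest in control 1 and highest in control 2. What sets the pools apart was not tested.

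**Figure D4:**
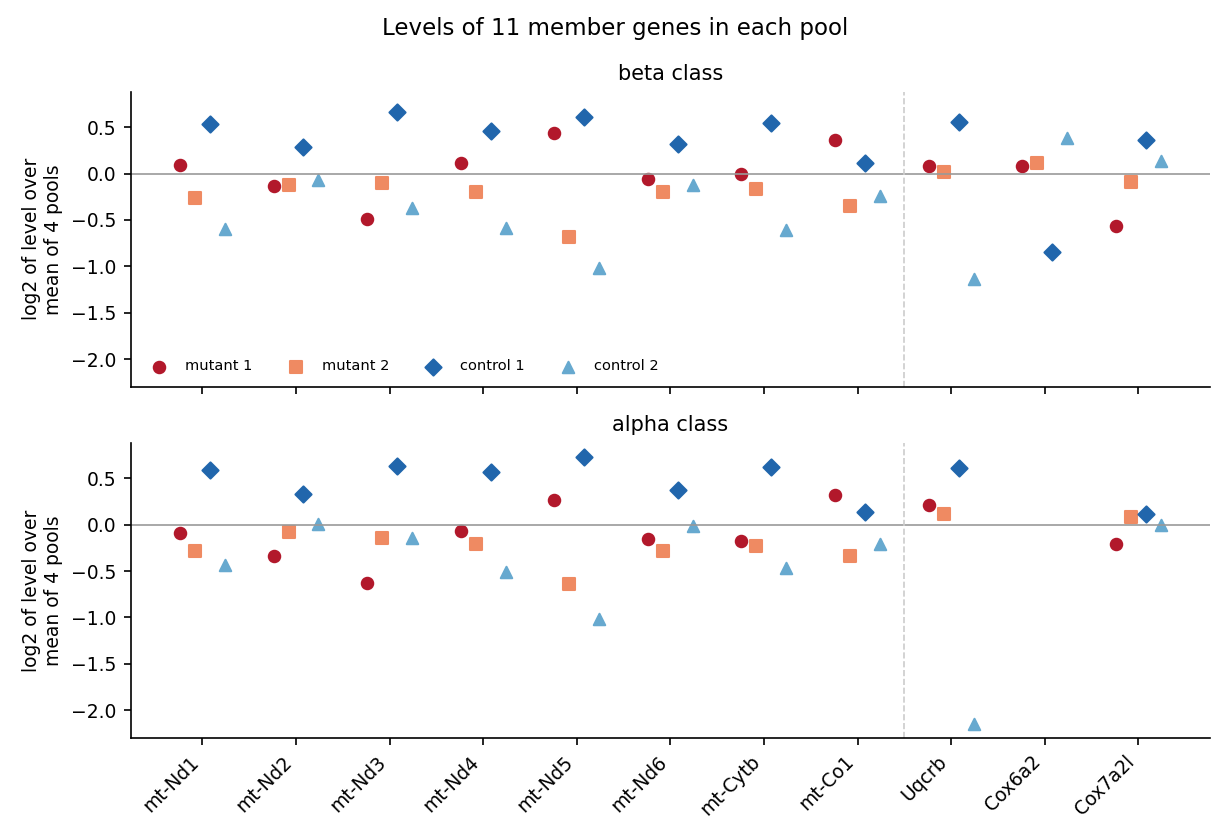
Log2 of the level of 11 genes in each pool over their mean of 4 pools, in the beta class (top) and alpha class (bottom; Cox6a2 is left out there); the dashed line parts mitochondrial from nuclear genes. Control 1 is at or near the top for mitochondrial genes in both classes, and control 2 is lowest for Uqcrb in both (81.6 and 28.3 CPM).

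No respiratory chain gene passed the test between mutant and control in any class. edgeR called 0 of 89 tested in beta, where 0.174% of all genes were called, 0 of 82 in alpha (0.68%), 0 of 75 in delta (0.023%) and 0 of 66 in pp (0%). DESeq2 also called 0 in each class. At an unadjusted p under 0.05, 2 were higher and 4 lower in beta (13.7% of all genes were either), 2 and 6 in alpha (10.3%), 0 and 5 in delta (6.21%), and 0 and 2 in pp (5.52%). The lowest adjusted p was 0.204 in beta and 0.135 in alpha. Each class was fitted on its own here, and CPM in these comparisons are TMM-scaled within the class, so they differ from the levels given above.

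In beta the median log2 difference was -0.07 over all members, -0.06 over nuclear and -0.12 over mitochondrial genes, beside 0.01 for all genes. With library totals alone the nuclear median was 0.06, beside 0.13 for all genes. Of 17 complex V genes 16 were below 0 and 1 above, with a median of -0.12, which was 0.01 with library totals alone (11 above and 6 below). Complex I had 13 above and 25 below, complex III 3 and 5, and nuclear complex IV 6 and 8. The summed share of nuclear complex IV was 0.501 and 0.506% of UMIs outside hormones in mutants and 0.539 and 0.571% in controls, without overlap, a difference with no test of its own. This sum includes Cox7a2l, its gene with most UMIs (29202 in beta), which is described next and was lower in both mutants. The sum is thus not separate from that gene, and the median log2 difference of nuclear complex IV genes was -0.01. Both mutants lay above both controls for 8 of 89 genes and below for 27, where 23.4% and 22.7% of all genes did.

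Cox7a2l was the gene with most UMIs among those at a low unadjusted p. It stood at 413 and 578 CPM in mutants and 800 and 671 in controls, both mutants below both controls and lowest in mutant 1 (log2 -0.57 ± 0.17 SE, adjusted p = 0.223). It passed only without control 2 (-0.69, adjusted p = 0.00304). In alpha it stood at 401 and 487 against 504 and 462, with overlap (-0.12 ± 0.15), and the difference between the effects in beta and alpha was -0.45 (adjusted p = 0.637). Its lowest pool was mutant 1 in alpha and delta as well (401 and 477 CPM) and mutant 2 in pp (449 CPM). Uqcrc2 stood at 18.1 and 13.5 against 8.87 and 10.5 CPM (0.70 ± 0.20, adjusted p = 0.204).

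Cox6b1, a complex IV subunit that faces cytochrome c, stood at 147 and 147 against 174 and 185 CPM (-0.29 ± 0.11, adjusted p = 0.323). Atp5g2 stood at 118 and 125 against 139 and 165 (-0.33 ± 0.13, adjusted p = 0.324). Both mutants lay below both controls for each of these, and for Atp5d, the delta subunit of ATP synthase (-0.27 ± 0.11, adjusted p = 0.349). Cox6a2 overlapped, at 200 and 206 against 107 and 246 CPM (0.20 ± 0.32, adjusted p = 0.833). Without control 1 its value was -0.28 and without control 2 it was 0.92 (adjusted p = 3.6e-04). Ndufa2 (-0.03 ± 0.11) and Atp5a1 (-0.14 ± 0.11) did not pass either.

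For mt-Cytb and mt-Nd4 the 2 controls lay on both sides of the mutants, while of the 12 mitochondrial genes 1 had both mutants below both controls and 0 had both above. mt-Cytb stood at 7133 and 6382 CPM in mutants and 10637 and 4681 in controls (-0.18 ± 0.31, adjusted p = 0.846), and mt-Nd4 at 7645 and 6194 against 9912 and 4722 (-0.08 ± 0.29). Without control 1 the values were 0.53 and 0.55, and without control 2 they were -0.66 and -0.52. mt-Nd1 stood at 0.52 without control 1 and -0.63 without control 2, and mt-Nd5 at 1.00 and -0.66. These fits keep a lone control. The direction of mt-Cytb, mt-Nd1, mt-Nd4 and mt-Nd5 thus turned with the control that was kept. The log2 ratio of mitochondrial to nuclear UMIs differed by 0.01 between groups, with SDs of 0.12 in mutants and 0.67 in controls, and went from -0.46 to 0.49 on leaving out each pool in turn.

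**Figure D5:**
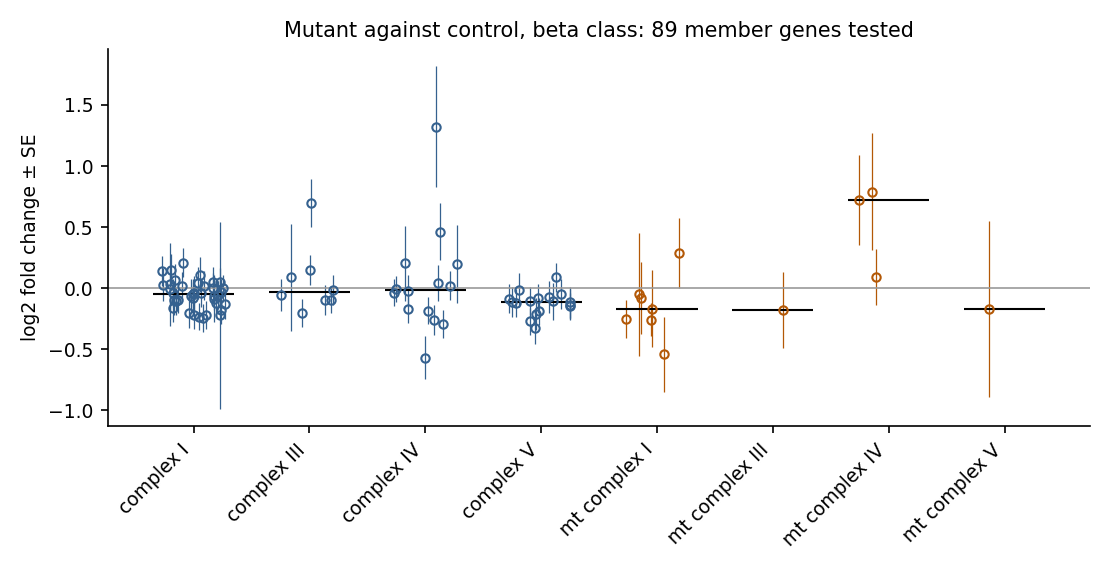
Log2 fold change ± SE of each of the 89 tested genes between mutant and control in the beta class, by complex and genome; black bars are medians. No gene passed the test, most nuclear genes lie within 0.3 of 0, and the error bars of mitochondrial genes are wider than those of nuclear genes.

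In alpha, where the driver is not named to act, mt-Nd3 had the lowest p, at 191 and 266 CPM in mutants against 460 and 267 in controls (-0.66 ± 0.19, adjusted p = 0.135). mt-Nd6 (-0.41 ± 0.13, adjusted p = 0.206) and mt-Nd2 (-0.39 ± 0.13, adjusted p = 0.253) were also below both controls in both mutants. These values lean on control 1, and without control 2, which keeps control 1 as the lone control, 7 mitochondrial genes were called lower. Without control 1, mt-Nd5 and Uqcrb were called higher (0.88 and 2.30, adjusted p = 0.0052 and 2.5e-09), so that mt-Nd5 turned from -0.87 to 0.88 with the control that was kept. Mitochondrial medians were -0.37 in alpha, -0.25 in delta and -0.28 in pp. The difference of the mutant effects between beta and alpha, delta or pp passed for 0 members (0.305%, 0.126% and 0.063% of all genes), with 4, 4 and 1 of 84 at an unadjusted p under 0.05, where 5.61%, 5.59% and 6.22% of all genes were.

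Markers of other cell types moved with the groups. The 12 acinar markers, all with counts in each beta sum, summed to 39.8 and 62.6 CPM in mutant pools against 154 and 271 in control pools of the beta class, and in alpha to 33.9 and 55.1 against 219 and 304. The 8 endothelial markers in alpha summed to 170 and 165 CPM in mutants against 49.5 and 33.6 in controls, where 2 and 3 of them were at 0, and overlapped in beta (76.3 and 82.8 against 44.95 and 140). In beta, macrophage markers were lower in both mutants (94.0 and 111 against 148 and 140 CPM) and duct markers higher (517 and 467 against 389 and 426). The part of these cells in the comparisons was not tested. None of the companion lists held a called gene between mutant and control in beta, delta or pp. In alpha 1 of 10 tested mitochondrial stress genes was called higher (adjusted p = 0.0465), where 0.68% of all genes were called. Among the regulators in beta Ppargc1a stood at 21.0 and 18.9 against 8.95 and 3.16 CPM (1.74 ± 0.38, adjusted p = 0.13). Esrra, a nuclear receptor that acts with it, stood at 11.6 and 15.7 against 6.82 and 6.03 (1.09 ± 0.21, adjusted p = 0.0988). Both mutants lay above both controls for each. Leaving out each pool gave 1.15 to 2.65 for Ppargc1a and 0.83 to 1.30 for Esrra. The genes passed in some of the alternatives only, among them library totals alone (1.88 and 1.21, adjusted p = 0.0497 and 0.0383).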

How the data were processed

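The deposited matrices hold whole-number UMI counts per gene symbol and barcode that the authors made before deposit, for 2 mutant and 2 control islet pools. Reads were placed on mm10 and Seurat was used, per the submitters' processing notes; the aligner, the annotation, the use of strand and the treatment of reads with several matches are not given in the sources used here. The highest value in each library, 4078 to 4093, lies near the 4096 sequences of a UMI of 6 bases.

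Barcodes with at least 500 genes and under 20% mitochondrial UMIs were kept. For each hormone, the share of a barcode's UMIs was divided by its 99th percentile over kept barcodes, and the class of the highest value was taken where it was at least 0.2 and the others at most 1 in 3 of it. UMIs were summed per pool and class and tested with edgeR 4.0.16 (limma 3.58.1, R 4.3.3) by quasi-likelihood. Low genes were left out by filterByExpr, sums were scaled by TMM, p-values were adjusted by Benjamini-Hochberg across the whole tested table, and calls were made at 0.05; every adjusted p in the text without another tool's name is of this test. Differences carry the standard error of the fit. Alternatives were other scalings, filters and gates, DESeq2 1.42.0, each pool left out, a replicate block and, chosen after seeing the data, a depth range and a crossed block. The fits were tested on simulated counts. Python 3.11.15 (pandas 2.3.3, numpy 2.4.6, matplotlib 3.10.9) made sums and plots, and blastn 2.17.0 compared mitochondrial genes with nuclear transcripts.

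Members and lists were chosen with earlier results of these data known. The text names the 12 members of lowest p each way per comparison among those that passed, all mitochondrial genes, tissue isoforms, the nuclear member with most UMIs per complex and up to 3 passing genes per list; other members named in the mutant comparison or for their spread between pools were chosen after their values were seen. A result of the rule that is withheld is not reported here. The planned ratio counted 13 mitochondrial genes, of which 12 were analysed here. Over 4244 genes same-numbered pools did not deviate together (r = -0.16), but this correlation cannot decide whether numbers pair pools for a subset of genes. In beta, mitochondrial UMIs per nuclear UMI were 2.53 and 2.25 in mutants and 3.29 and 1.70 in controls, in order of pool number. The lower-numbered pool was also higher in both groups in alpha and delta, but not in the mutants of pp (1.81 and 1.83). Whether numbers pair pools was not tested further. With 2 pools a group, precision between groups is low.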

Additional observations from a re-analysis of the deposited data

How the results depend on the processing

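Counts of members called between classes fell under depth matching, chosen after seeing the data (36 against alpha, 23 against delta and 15 against pp). They also fell with the controls only (20 against delta and 19 against pp), with the mutants only (21 against pp) and with library totals alone (20 against pp). Leaving out each pool gave 44 to 54 against alpha, 24 to 33 against delta and 24 to 33 against pp. Between mutant and control, 3 members were called in alpha with no low-count filter. Leaving out each pool gave 0 to 10 called in beta, 1 to 7 in alpha, 0 to 3 in delta and 0 in pp; these fits keep 1 pool in a group and assume that it varies like the others, and the cause was not tested. The other alternatives gave 0, except the blocked fits given below. Over all genes DESeq2 called 238 in beta where edgeR called 24, and 8 in alpha where edgeR called 59.

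Several mutant effects in beta changed sign. With library totals alone mt-Nd4 was 0.064, mt-Nd5 0.11 and Ndufa2 0.087, with totals without hormones mt-Nd5 was 0.0055 and Ndufa2 0.0036, and with the stricter gate mt-Nd5 was 0.029. With matched depth mt-Nd1 was 0.019, mt-Nd4 0.032 and mt-Nd5 0.12, and Uqcrfs1 against pp was 0.075. Leaving out each pool gave -1.635 to 1.08 for mt-Atp6, -0.30 to 0.38 for mt-Co1, -0.046 to 1.54 for mt-Co2, -0.66 to 0.53 for mt-Cytb, -0.63 to 0.52 for mt-Nd1, -0.98 to 0.086 for mt-Nd3, -0.52 to 0.55 for mt-Nd4, -0.12 to 0.84 for mt-Nd4l, -0.71 to 1.00 for mt-Nd5, -0.28 to 0.92 for Cox6a2 and -0.10 to 0.015 for Ndufa2, and in alpha -0.27 to 0.016 for Cox7a2l.

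The replicate block called 1 member in beta (mt-Co2, 0.76, adjusted p = 0.0246), with mt-Nd4 at 0.0082 and mt-Nd5 at 0.0678. Same-numbered pools correlated at r = -0.16; with the pairing crossed, chosen after seeing the data, 1 member was called in alpha, with mt-Nd4 at 0.0082 and mt-Nd5 at 0.068 in beta.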
